A study of Mus musculus with 9 samples.

Results

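The genes of fatty acid oxidation and ketone use were followed in cells that CD8a magnetic beads recovered from MC38 tumours, a mouse colon carcinoma line grown under the skin. The gene list named 32 genes of the carnitine shuttle, of mitochondrial and peroxisomal beta-oxidation and of ketone metabolism, and 30 of them had at least 30 counts over the 9 libraries, of 10491 genes in the file that did. Ppara and Ppargc1a, which encode a fatty acid sensing receptor and its coactivator, had 1 and 2 counts in all and were left out. Bdh1 lay just inside the minimum with 31 counts, and Cpt2 was next with 76. The tumours grew in wild type male C57BL/6N mice and were taken 21 days after injection. In the aged restricted group the mice were 20 months old and received 70% of the ad libitum intake. The aged ad libitum group was also 20 months old, and the young ad libitum group was 5 months old. Each group had 3 libraries, and whether a library pooled mice was not given in the sources used here.

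Fatty acids are activated to acyl-CoA esters, cross the inner mitochondrial membrane as carnitine esters and are shortened inside by repeated rounds of dehydrogenation, hydration, a second dehydrogenation and thiolysis. The electrons of the first step reach the respiratory chain through electron transfer flavoprotein. Ketone bodies come mostly from the liver, more so in fasting, and other tissues turn them back into acetyl-CoA. Memory CD8 T cells and alternatively activated macrophages are immune cells in which fatty acid oxidation has been studied.

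Libraries held from 810662 to 1258575 counts, with the aged ad libitum libraries the shallowest. The summed count of the 30 genes was 648, 1491 and 953 in the aged restricted libraries, 793, 559 and 550 in those of aged ad libitum mice and 1068, 1011 and 819 in the young ad libitum libraries. Mitochondrially encoded genes took from 23.5% of the counts, in aged restricted replicate 2, to 45.7%, in aged restricted replicate 1. Levels are therefore given as TMM-scaled CPM, that is counts per 1000000 after a library correction that limits the weight of a few abundant genes, and a log2 fold change is the difference of 2 groups on the log2 scale. All 14 T cell markers had counts in each group, yet the 14 macrophage markers summed to more in every library. Macrophage markers summed to 7527 to 8816 CPM of the library total in aged restricted mice, to 2104 to 5652 in aged ad libitum mice and to 3518 to 3848 in young mice, while T cell markers summed to 314 to 513, 164 to 505 and 66.5 to 309 CPM in the same groups. The levels below are thus over all cells of a sample, and in such bulk samples fewer cells of a type and less RNA per cell cannot be told apart.

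No gene of the set passed the test in any of the 3 comparisons. Of the 9009 genes tested by edgeR's quasi-likelihood test with Benjamini-Hochberg adjustment at 0.05, restricted against ad libitum aged mice gave 85 called genes, or 0.944%, of which 62 (0.688%) were higher and 23 (0.255%) lower in restricted mice. The same comparison called 0 of the 29 tested members, and DESeq2 also called 0. At an unadjusted p under 0.05 there were 2 members, Acat1 and Hadhb, which is 6.90% of the 29 against 11.7% of all tested genes. Aged against young mice, both fed ad libitum, gave 26 called genes (0.289%), 13 (0.144%) in each direction, and 0 members by edgeR or DESeq2, with 4 members (13.8%) at an unadjusted p under 0.05 against 10.4% of all genes. Restricted aged against young mice gave 175 called genes (1.94%), 100 (1.11%) higher and 75 (0.833%) lower, and 0 members by either tool, with 0 members at an unadjusted p under 0.05 against 11.6% of all genes. With plain library totals in place of TMM the split of all called genes moved to 12 higher and 7 lower for age and to 81 higher and 36 lower for restricted against young mice. The age and restriction comparisons share the aged ad libitum libraries, and each of the other pairs of comparisons shares a group too.

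The fitted changes of the set lay on both sides of 0. In restricted against ad libitum aged mice 17 of 29 members were fitted higher and 12 lower, and the median log2 fold change was 0.12, against 0.00 over all tested genes. Aged against young mice had 16 members fitted higher and 13 lower with a median of 0.08 (all genes 0.00), and restricted against young mice had 16 higher and 13 lower with a median of 0.05 (all genes 0.02). Single members ran from -0.68 to 1.89, from -2.60 to 1.05 and from -0.70 to 1.69 in the restriction, age and restricted against young comparisons. Only 2, 1 and 6 of the 29 members had a 95% interval that lay wholly within a 2-fold change either way in these comparisons. For the other members a 2-fold change was therefore within the interval, and a difference of that size was not excluded at this depth.

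**Figure D1:**
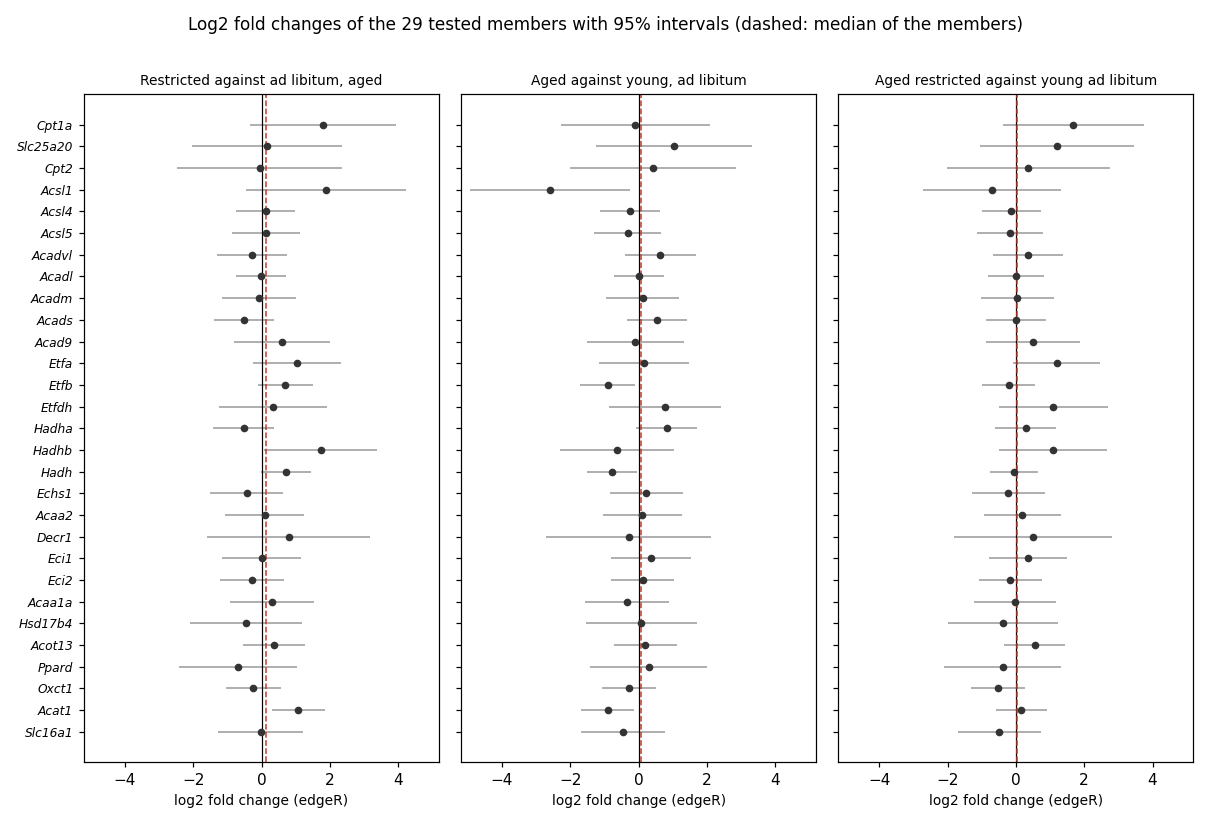
Log2 fold change (horizontal axis) of each of the 29 tested members with its 95% interval, for restricted against ad libitum aged mice, aged against young mice, and restricted aged against young mice. No member passed an edgeR adjusted p of 0.05 in any panel, and the lowest adjusted p was 0.214, for Acat1 in the restriction comparison.

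Summed over the set, the levels of the groups overlapped. The 30 members summed to 717, 978 and 848 CPM in the aged restricted libraries, 807, 750 and 676 CPM in aged ad libitum libraries and 883, 814 and 725 CPM in the young libraries, which gives 848 ± 130, 744 ± 65.4 and 807 ± 79.4 CPM (SD, n = 3 each). Aged restricted replicate 2 was the highest and replicate 1 the second lowest of all 9 libraries, so the widest spread was within the restricted group. These libraries were also those with the lowest and the highest share of mitochondrially encoded counts, whose part in the spread was not tested. Per plain library total they were 870 ± 297, 745 ± 111 and 790 ± 103 CPM (SD, n = 3 each) in restricted, aged ad libitum and young mice. Scaled to the library total without mitochondrially encoded genes the sums were 1326 ± 229, 1175 ± 95.1 and 1223 ± 104 CPM (SD, n = 3 each) in restricted, aged ad libitum and young mice.

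**Figure D2:**
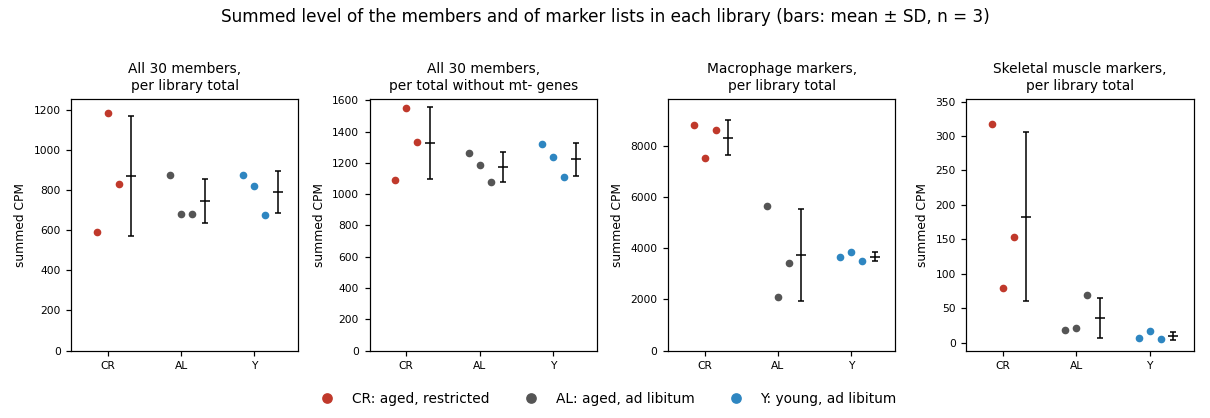
Summed CPM (vertical axis) in each library of restricted aged (CR), ad libitum aged (AL) and young (Y) mice, for the 30 members per library total and per total without mitochondrially encoded genes, and for 14 macrophage and 14 skeletal muscle markers per library total. Bars are the mean ± SD of 3 libraries; the member sums overlap between all groups, while both marker sums lie higher in every restricted library than in every other.

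The genes whose groups did not overlap were few. In restricted against ad libitum aged mice 4 of 29 tested members (13.8%), Cpt1a, Hadhb, Hadh and Acat1, had all 3 restricted libraries above all 3 ad libitum ones, against 9.26% of all tested genes, and 0 members had them all below, against 8.47%. Aged mice lay wholly below young mice for Acsl1 and Hadh, 6.90% of the members against 8.58% of all genes, and for 0 members wholly above, against 7.40%. Restricted mice lay wholly above young mice for Etfa and Hadhb, 6.90% against 9.82% of all genes, and for 0 members wholly below, against 9.26%.

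**Figure D3:**
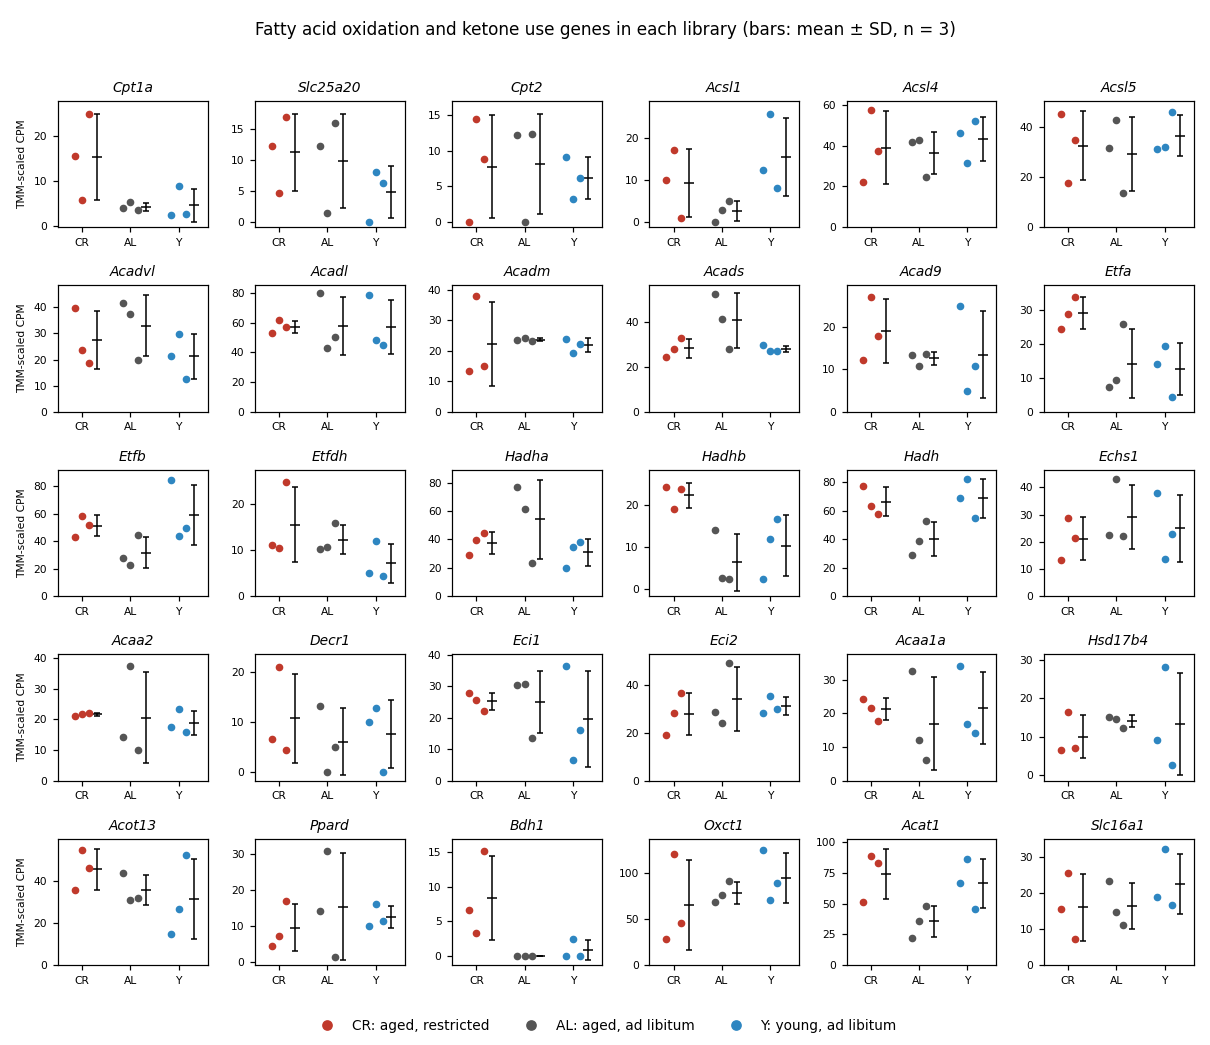
TMM-scaled CPM (vertical axis) of each of the 30 members in each library of restricted aged (CR), ad libitum aged (AL) and young (Y) mice, with bars for the mean ± SD of 3 libraries. Acat1 and Hadh were lower in aged ad libitum mice than in restricted mice in all libraries, and Bdh1 was at 0 in every aged ad libitum library.

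In the carnitine shuttle, which carries long-chain acyl groups into mitochondria, 0 of 3 genes passed in any comparison, and the restriction groups were apart for the entry enzyme. Cpt1a, carnitine palmitoyltransferase of the outer membrane and the step at which entry is controlled, had 15.5, 5.91 and 24.9 CPM in the aged restricted libraries, against 4.07, 5.36 and 3.69 CPM in aged ad libitum libraries and 2.48, 8.86 and 2.65 CPM in the young libraries. Every restricted library lay above every aged ad libitum library, but restricted replicate 2 was below the highest young one. The restricted against ad libitum log2 fold change was 1.79 ± 1.04 (SE; 95% interval -0.35 to 3.92) with an edgeR adjusted p of 0.534, on 51 against 11 counts. Against young mice, with 17 counts, restricted mice had a log2 fold change of 1.69 ± 1.01 (SE) and an edgeR adjusted p of 0.571, and the age difference was -0.10 ± 1.06 (SE) with an edgeR adjusted p of 0.989.

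The Cpt1a promoter is shown because fatty acid sensing PPAR receptors bind direct repeats of the letters AGGTCA, known as DR1 elements when 1 base lies between the repeats, and Cpt1a is a classical target of them. RefSeq windows of 300 bases around the start site (250 before and 50 from it on, GRCm38.p6) were at hand for 26 of the 32 listed genes. The Cpt1a window, at chr19:3323051-3323350 on the plus strand, follows with capitals on the 1 match to AGGTCA, which reads on the other strand and begins at position -94 from the start site.
Cpt1a window: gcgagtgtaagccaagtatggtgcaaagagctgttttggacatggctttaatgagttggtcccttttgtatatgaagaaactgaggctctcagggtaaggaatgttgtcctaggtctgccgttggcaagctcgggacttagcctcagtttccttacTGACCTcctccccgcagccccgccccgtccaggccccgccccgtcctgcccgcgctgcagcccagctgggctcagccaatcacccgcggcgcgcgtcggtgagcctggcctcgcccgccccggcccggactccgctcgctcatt
The whole repeat, AGGTCA followed by any 1 base and AGGTCA again on either strand, matched in 0 of the 26 member windows and in 13 of 27025 gene windows (0.0481%). AGGTCA alone, on either strand, matched in 4 of 26 member windows (15.4%), those of Cpt1a, Acadvl, Acadm and Echs1, and in 18.1% of all gene windows. These matches describe the letters of the windows only.

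Slc25a20, the carnitine carrier of the inner membrane, had 12.2, 4.59 and 16.9 CPM in the aged restricted libraries, 12.2, 1.34 and 16 CPM in aged ad libitum libraries and 0, 8.05 and 6.19 CPM in the young libraries. Its groups overlapped in all comparisons, with log2 fold changes of 0.16 ± 1.08 for restriction, 1.05 ± 1.11 for age and 1.21 ± 1.10 for restricted against young mice (SE; edgeR adjusted p 0.974, 0.808 and 0.770). Cpt2, which hands the acyl group back to CoA inside, had 0, 14.4 and 8.89 CPM in restricted mice, 12.2, 0 and 12.3 CPM in aged ad libitum mice and 9.09, 3.22 and 6.19 CPM in young mice. The groups overlapped, with a library at 0 counts in both aged groups, and its edgeR adjusted p values lay between 0.940 and 0.993.

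Acsl1, Acsl4 and Acsl5 encode long-chain acyl-CoA synthetases, which activate fatty acids. For Acsl1 the aged restricted libraries had 9.97, 17.1 and 0.889 CPM, aged ad libitum ones 0, 2.68 and 4.92 CPM and the young libraries 12.4, 25.8 and 7.96 CPM. Young mice lay wholly above aged ad libitum mice, while restricted replicate 3 was as low as the ad libitum ones. The age log2 fold change of -2.60 ± 1.14 (SE; 95% interval -4.93 to -0.27) was the furthest from 0 of the 29 tested members in that comparison, with an edgeR adjusted p of 0.404 on 6 counts in aged ad libitum mice against 56 in young mice. Restriction gave 1.89 ± 1.14 (SE), the highest of the 29 tested members in its comparison, with an edgeR adjusted p of 0.559. Acsl4, which prefers arachidonic acid, and Acsl5 had log2 fold changes between -0.32 and 0.14 in all 3 comparisons, with standard errors of 0.42 to 0.48. Part of the Acsl5 reads may belong to Zdhhc6, which overlaps its 3′ end on the other strand and had 125 counts, since the use of strand in counting was not given in the sources used here.

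The 5 acyl-CoA dehydrogenases, which take the first pair of electrons from acyl chains of different lengths, had log2 fold changes between -0.52 and 0.61 for restriction, -0.10 and 0.63 for age and 0.00 and 0.51 for restricted against young mice. Acadl, the long-chain enzyme, was the deepest counted of them, at 57.2 ± 4.27, 57.9 ± 19.8 and 57.3 ± 18.4 CPM in restricted, aged ad libitum and young mice (SD, n = 3 each). The standard errors of its log2 fold changes were 0.36 to 0.40. Acadm, the medium-chain enzyme, stood at 22.2 ± 13.8, 23.6 ± 0.437 and 21.8 ± 2.34 CPM in restricted, aged ad libitum and young mice, and its restricted spread came from replicate 2 at 38.1 CPM. Acads, the short-chain enzyme, averaged 28.5 ± 4.28 CPM in restricted mice, 40.9 ± 12.3 CPM in aged ad libitum mice and 28.2 ± 1.36 CPM in young mice. Acadvl, the very long-chain enzyme, averaged 27.4 ± 11.1, 33.0 ± 11.7 and 21.2 ± 8.71 CPM in the same groups and is uncertain, because Dvl2 overlaps its 3′ end on the other strand and had 295 counts. Acad9, a dehydrogenase that also serves complex I assembly, averaged 19.0 ± 7.43, 12.5 ± 1.54 and 13.4 ± 10.3 CPM in restricted, aged ad libitum and young mice.

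Electron transfer flavoprotein is a dimer of the products of Etfa and Etfb, and Etfdh encodes the dehydrogenase that passes its electrons to the quinone pool. The aged restricted libraries had 24.4, 28.9 and 33.8 CPM of Etfa, aged ad libitum ones 7.12, 9.39 and 25.8 CPM and the young libraries 14.1, 19.3 and 4.42 CPM. All restricted libraries exceeded all young ones, and aged ad libitum replicate 3 reached into the restricted range. Restricted against young mice gave 1.19 ± 0.62 (SE; 95% interval -0.07 to 2.46) with an edgeR adjusted p of 0.465, the lowest of any member in that comparison, and restricted against ad libitum aged mice gave 1.04 ± 0.63 (SE) with an edgeR adjusted p of 0.557.
For Etfb the values were 43.2, 58.4 and 51.6 CPM in restricted mice, 27.5, 22.8 and 44.3 CPM in aged ad libitum mice and 84.3, 43.5 and 49.5 CPM in young mice. Here aged ad libitum replicate 3 again lay within the range of the others, and the age log2 fold change was -0.91 ± 0.40 (SE; 95% interval -1.72 to -0.09) with an edgeR adjusted p of 0.404. Etfdh averaged 15.5 ± 8.16, 12.3 ± 3.21 and 7.15 ± 4.27 CPM in restricted, aged ad libitum and young mice (SD, n = 3 each). All 3 genes were thus fitted higher in restricted than in ad libitum aged mice, and 0 of the 3 passed the test.

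Hadha and Hadhb encode the alpha and beta subunits of the mitochondrial trifunctional protein, which carries out the last 3 steps of a round on long chains. Both genes start from one region of chromosome 5 in opposite directions, with start sites 273 bases apart in RefSeq (GRCm38.p6). The Hadhb window of 300 bases, at chr5:30155003-30155302 on the plus strand, is shown because it contains most of that shared region, and its capitals mark the 228 bases that also lie in the Hadha window.
Hadhb window: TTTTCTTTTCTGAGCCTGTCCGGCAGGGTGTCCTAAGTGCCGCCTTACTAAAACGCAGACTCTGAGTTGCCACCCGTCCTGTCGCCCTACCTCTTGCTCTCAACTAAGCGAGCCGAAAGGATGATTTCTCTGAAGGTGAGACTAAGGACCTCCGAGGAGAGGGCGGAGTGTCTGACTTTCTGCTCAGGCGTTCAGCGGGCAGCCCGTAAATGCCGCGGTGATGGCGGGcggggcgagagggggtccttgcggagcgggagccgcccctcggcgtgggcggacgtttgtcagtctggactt
Hadhb had 24.4, 19.0 and 24.0 CPM in the aged restricted libraries, 14.2, 2.68 and 2.46 CPM in aged ad libitum libraries and 2.48, 12.1 and 16.8 CPM in the young libraries. Restricted libraries were above all 6 others. The log2 fold change was 1.73 ± 0.81 (SE; 95% interval 0.07 to 3.39; edgeR adjusted p 0.408) against aged ad libitum mice, on 78 against 18 counts, and 1.10 ± 0.77 (SE; edgeR adjusted p 0.662) against young mice.
Its partner Hadha had 28.8, 39.4 and 44.5 CPM in the aged restricted libraries, 77.3, 61.7 and 23.4 CPM in aged ad libitum libraries and 19.8, 34.6 and 38.0 CPM in the young libraries. Aged ad libitum replicates 1 and 2 were the highest of all, and replicate 3 was among the lowest. The Hadha log2 fold changes were -0.53 ± 0.43 for restriction and 0.82 ± 0.44 for age (SE; edgeR adjusted p 0.715 and 0.546), opposite in sign to those of Hadhb, and neither gene was called.

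Hadh, the short-chain hydroxyacyl-CoA dehydrogenase, had 77.5, 63.0 and 57.8 CPM in the aged restricted libraries, 28.5, 38.9 and 52.9 CPM in aged ad libitum libraries and 68.6, 82.1 and 54.8 CPM in the young libraries. All aged ad libitum libraries were below all others. Restriction gave 0.72 ± 0.36 (SE; 95% interval -0.01 to 1.45; edgeR adjusted p 0.427), age -0.78 ± 0.35 (SE; -1.51 to -0.05; edgeR adjusted p 0.434) and restricted against young mice -0.06 ± 0.34 (SE; edgeR adjusted p 0.982). Echs1, the short-chain enoyl-CoA hydratase, averaged 21.2 ± 7.79, 29.1 ± 11.9 and 24.9 ± 12.3 CPM in restricted, aged ad libitum and young mice. Acaa2, the thiolase of the mitochondrial matrix, averaged 21.6 ± 0.598, 20.5 ± 14.9 and 18.9 ± 3.94 CPM in these groups (SD, n = 3 each).

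None of the auxiliary, peroxisomal and regulatory members had groups that did not overlap. Decr1, Eci1 and Eci2, which prepare unsaturated chains for the spiral, had log2 fold changes between -0.29 and 0.79 over the 3 comparisons, with Decr1 at 0 counts in 2 libraries. The peroxisomal thiolase Acaa1a averaged 21.3 ± 3.3 CPM in restricted mice, 16.9 ± 13.9 CPM in aged ad libitum mice and 21.7 ± 10.7 CPM in young mice. Its near-identical copy Acaa1b had 0 counts in every library, and how reads matching both were counted was not given, so Acaa1a is uncertain. Hsd17b4, the bifunctional enzyme of peroxisomal oxidation, averaged 10.1 ± 5.50, 14.1 ± 1.59 and 13.3 ± 13.3 CPM in the same groups. Acot13, a thioesterase that releases fatty acids from CoA, averaged 45.4 ± 9.54, 35.5 ± 7.15 and 31.2 ± 19.1 CPM, and the fatty acid receptor gene Ppard averaged 9.51 ± 6.54, 15.4 ± 14.8 and 12.5 ± 3.21 CPM (SD, n = 3 each).

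Among the ketone genes, Acat1 had the lowest adjusted p of all members in 2 comparisons. It encodes the mitochondrial acetoacetyl-CoA thiolase, which forms or splits acetoacetyl-CoA and also acts in isoleucine breakdown. The aged restricted libraries had 50.9, 88.6 and 82.7 CPM, aged ad libitum ones 22.4, 36.2 and 48.0 CPM and the young libraries 67.0, 86.2 and 46.0 CPM. Restricted libraries lay wholly above ad libitum ones of the same age, and young replicate 3 fell within the aged ad libitum range. The restriction log2 fold change was 1.07 ± 0.38 (SE; 95% interval 0.30 to 1.85; edgeR adjusted p 0.214), on 274 against 88 counts. Age gave -0.91 ± 0.38 (SE; -1.69 to -0.13; edgeR adjusted p 0.376), and restricted mice differed from young mice by 0.16 ± 0.36 (SE; edgeR adjusted p 0.940).

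Bdh1, which converts hydroxybutyrate to acetoacetate as the first step of ketone use, was counted almost wholly in restricted mice. It had 6, 5 and 17 counts in the aged restricted libraries, 0 in each aged ad libitum library and 0, 3 and 0 in the young libraries. Since 28 of its 31 counts were in restricted mice, Bdh1 met the minimum of 30 counts only through that group, and its excess there is a description that follows in part from that minimum. With a floor of 3 counts over the aged ad libitum group, which corresponds to 1.18 CPM, the pooled level in restricted mice was 6.68-fold that floor. This bound takes the 28 counts as exact and leaves out the spread between libraries. The ratio to young mice was 9.41, with a counting interval from 2.91 to 48.4 (95%, exact binomial, counting error only). Without aged restricted replicate 3, which held 17 of the 28 counts, the bound was 3.84-fold and the ratio to young mice 5.41 (1.43 to 30.2). The bound was 4.10-fold without aged ad libitum replicate 1, and against young mice the ratio was 6.23 without young replicate 1 and the bound 6.15-fold without young replicate 2, which held all 3 young counts. A filter that let Bdh1 into the test gave edgeR adjusted p values of 0.258 for restriction, 0.743 for age and 0.500 for restricted against young mice. In that fit the 95% interval of the log2 fold change was 1.53 to 10.84 for restriction. For restricted against young mice it was -0.24 to 6.57, which includes 0. The bounds, ratios, adjusted p values and intervals of Bdh1 all use the counts that let it in, so none of them is a separate test of its excess. Skeletal muscle markers were also highest in restricted mice: the 14 genes summed to 318, 78.7 and 153 CPM of the library total in restricted mice, to 17.6, 20.8 and 69.1 in aged ad libitum mice and to 7.37, 16.2 and 5.77 in young mice. Unlike Bdh1, this sum was higher in aged ad libitum than in young mice. Within restricted mice it was highest in replicate 1, and Bdh1 in replicate 3. All 14 had counts in restricted mice, 8 in aged ad libitum mice and 3 in young mice. Ckm, muscle creatine kinase, had 13, 5 and 6 counts in restricted mice and 0 in all others. Des of the same list had 10, 1 and 1 counts in restricted mice, 1, 3 and 9 in aged ad libitum mice and 4, 0 and 0 in young mice. Other marker sums stood in the same order of groups as the muscle sum: 14 keratinocyte markers at 570 ± 386, 114 ± 44.5 and 10.4 ± 3.37 CPM, 7 red blood cell markers at 287 ± 113, 71.2 ± 25.1 and 2.46 ± 4.26 CPM and 10 neutrophil markers at 75.3 ± 20.5, 27.7 ± 16.5 and 4.64 ± 1.70 CPM of the library total in restricted, aged ad libitum and young mice (SD, n = 3 each). T cell marker means of 438, 304 and 173 CPM stood in that order too, with overlapping libraries. Macrophage markers at 8325, 3730 and 3668 CPM and tumour epithelium markers at 14.0, 2.467 and 2.465 CPM were highest in restricted mice. For both lists the aged ad libitum and young libraries overlapped. On the TMM scale their aged ad libitum means were below the young ones, at 3652 against 3755 CPM and 2.46 against 2.56 CPM. Endothelial, fibroblast and fat cell marker sums did not stand in the order of the muscle sum. The part of any of these cell types in the Bdh1 counts was not tested.

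Oxct1, the CoA transferase that commits acetoacetate to oxidation, was the deepest counted member, with 800 counts in all. The aged restricted libraries had 28.8, 121 and 46.2 CPM, aged ad libitum ones 68.2, 76.4 and 91.0 CPM and the young libraries 125, 70.9 and 89.4 CPM. Restricted replicates 1 and 3 were the lowest of all 9 libraries and replicate 2 was second highest. With all libraries the restricted against young log2 fold change was -0.52 ± 0.38 (SE; 95% interval -1.30 to 0.27; edgeR adjusted p 0.685), and the restriction change was -0.24 ± 0.39 (SE; edgeR adjusted p 0.879). Without aged restricted replicate 2 the restricted against young change was -1.33 with an edgeR adjusted p of 0.0498, so this 1 library decided that call. That library also had the lowest share of mitochondrially encoded counts. Its 10 fibroblast markers summed to 2303 CPM of the library total, against 575 and 596 CPM in restricted replicates 1 and 3. Its 14 keratinocyte markers summed to 1012 CPM, against 296 and 403 CPM. The part of any of these in its Oxct1 level was not tested. Slc16a1, a carrier of lactate and ketone bodies, had 15.5, 25.6 and 7.11 CPM in restricted mice, 23.4, 14.8 and 11.1 CPM in aged ad libitum mice and 19.0, 32.2 and 16.8 CPM in young mice. Its groups overlapped in all comparisons, with edgeR adjusted p values between 0.847 and 0.993.

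Around the set, 124 other genes of lipid uptake, storage, oxidation and ketone handling were followed, of which 78 were tested. At an unadjusted edgeR p under 0.05 there were 9 of the 78 (11.5%) for restriction, against 11.7% of all genes. Age had 10 (12.8%) against 10.4%, and restricted against young mice 11 (14.1%) against 11.6%. Restriction and age called 0 of the 78 each by edgeR, and restricted against young mice called 2, both lower, which is 2.56% against 0.833% of all genes called lower. Dbi, which binds acyl-CoA esters in the cytosol, had 215, 253 and 249 CPM in the restricted libraries, 316, 211 and 298 CPM in aged ad libitum libraries and 556, 415 and 365 CPM in the young libraries. It fell by 0.90 ± 0.22 on the log2 scale in restricted against young mice (SE; edgeR adjusted p 0.0259), and all restricted libraries lay below all young ones. So did all aged ad libitum libraries, and the Dbi log2 fold change was -0.69 for age and -0.20 for restriction (edgeR adjusted p 0.197 and 0.805). Acsl3, the acyl-CoA synthetase of nascent lipid droplets, had 12.2, 45.3 and 17.8 CPM in restricted mice, 33.6, 46.9 and 48.0 CPM in aged ad libitum mice and 50.4, 87.8 and 114 CPM in young mice. It fell by 1.70 ± 0.43 (SE; edgeR adjusted p 0.0339) with no overlap between restricted and young mice. Aged ad libitum libraries also lay below all young ones for Acsl3, which changed by -0.98 for age and -0.72 for restriction (edgeR adjusted p 0.404 and 0.571). Restricted and young mice differed in both age and feeding. With plain library totals the edgeR adjusted p was 0.154 for Dbi and 0.129 for Acsl3, and both calls were also lost without single libraries, namely restricted replicate 1 or 3 or young replicate 2 for both, young replicate 1 for Dbi and young replicate 3 for Acsl3.

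**Figure D4:**
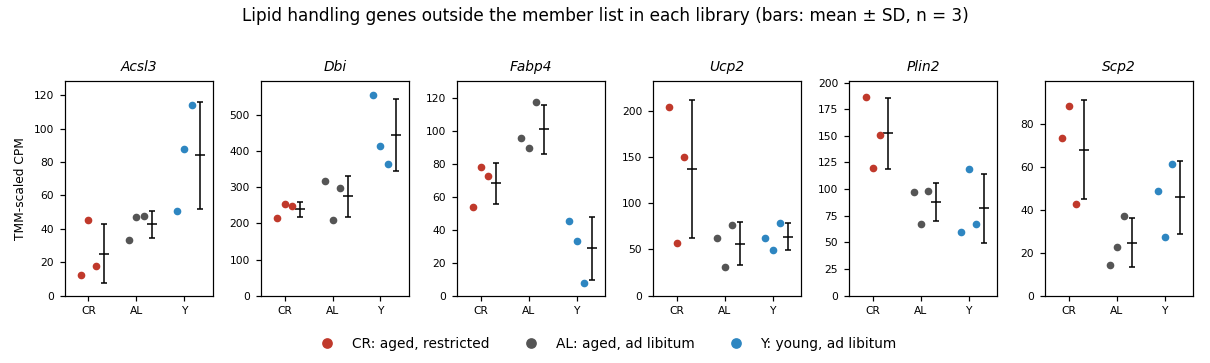
TMM-scaled CPM (vertical axis) of 6 lipid handling genes outside the set in each library of restricted aged (CR), ad libitum aged (AL) and young (Y) mice, with bars for the mean ± SD of 3 libraries. Dbi and Acsl3 lay lower in restricted than in young mice in all libraries, and Fabp4 was highest in aged ad libitum mice.

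Fabp4, a fatty acid binding protein of macrophages, capillary endothelium and fat cells, had 54.3, 78.1 and 72.9 CPM in restricted mice, 95.6, 89.8 and 118 CPM in aged ad libitum mice and 45.5, 33.0 and 7.96 CPM in young mice. Aged ad libitum libraries lay above all others, and the age log2 fold change of 1.80 ± 0.41 (SE) had an edgeR adjusted p of 0.050007, just above the threshold. Endothelial markers summed to 492 ± 214 CPM of the library total in aged ad libitum mice against 117 ± 29.2 CPM in young mice (SD, n = 3 each), and their part in Fabp4 was not tested. Of the 14 fat cell markers, of which Fabp4 itself is 1, 5 were at 0 counts in every library, the defining Adipoq, Plin1 and Lep among them. The number with counts was 8 in restricted mice and 3 in each of the other groups, and Cfd had 13, 0 and 9, Car3 8, 3 and 4, Pck1 3, 11 and 0 and Cidec 6, 0 and 0 counts in the restricted libraries and 0 in all others. Retn of the same list went the other way, with 14 counts in young replicate 2 and 0 in all other libraries. The fat cell list summed to 87.0 to 114 CPM of the library total in restricted mice, 83.1 to 123 in aged ad libitum mice and 11.5 to 51.1 in young mice. On the TMM scale this list averaged 97.1, 105 and 37.3 CPM in restricted, aged ad libitum and young mice. Fabp4 alone averaged 68.4, 101 and 28.8 CPM, so the sum was mostly Fabp4 itself. The part of fat cells in Fabp4 was not tested.

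Among PPAR target genes 0 of 7 tested genes of the 20 listed passed in any comparison, with 6 of 7 fitted higher in restricted than in ad libitum aged mice. Ucp2, a mitochondrial carrier, had 204, 56.4 and 150 CPM in restricted mice, 62.1, 30.8 and 76.2 CPM in aged ad libitum mice and 62.8, 49.9 and 78.7 CPM in young mice, and restricted replicate 2 lay within the range of the other groups (restriction 1.26 ± 0.39, SE, edgeR adjusted p 0.144). Plin2, the lipid droplet coat protein, averaged 152 ± 33.3, 87.7 ± 17.9 and 82.0 ± 32.5 CPM in restricted, aged ad libitum and young mice, with restriction at 0.79 ± 0.30 (SE, edgeR adjusted p 0.283). Both are expressed in macrophages, whose markers also summed higher in restricted mice, as given above, and the part of that in both genes was not tested. The exact 2-sided permutation test of that sum gave p = 0.1, the smallest that 3 libraries against 3 allow, or 0.15 adjusted over 30 comparisons of marker sums. Tsc22d3, a glucocorticoid-induced gene, stood at 50.4 ± 18.3, 21.0 ± 2.90 and 31.6 ± 6.64 CPM (restriction 1.25 ± 0.45, SE, edgeR adjusted p 0.220).

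Lipid droplet genes were 0 of 9 called in each comparison, and all 9 were fitted higher in restricted than in young mice, as were 4607 of all 9009 tested genes. The macrophage markers were fitted higher in that comparison for 14 of 14 genes, with 5 called, and their part in the lipid droplet genes was not tested. Hilpda, an inhibitor of lipolysis in droplets, averaged 115 ± 9.10, 57.6 ± 23.5 and 79.2 ± 17.9 CPM in restricted, aged ad libitum and young mice (restriction 0.98 ± 0.32, SE, edgeR adjusted p 0.174). Lipa, the lysosomal acid lipase, averaged 45.1 ± 14.7, 23.3 ± 16.8 and 27.7 ± 6.99 CPM. Peroxisomal genes were 0 of 14 called in each comparison, and Scp2, whose product is a peroxisomal thiolase and lipid carrier, had 73.1, 87.9 and 42.7 CPM in restricted mice, 14.2, 22.8 and 36.9 CPM in aged ad libitum mice and 48.8, 27.4 and 61.0 CPM in young mice. Restricted libraries lay wholly above aged ad libitum ones, at a log2 fold change of 1.47 ± 0.44 (SE, edgeR adjusted p 0.108). Acox3, a peroxisomal acyl-CoA oxidase, averaged 18.5 ± 16.4, 11 ± 12.5 and 2.95 ± 5.11 CPM, and Phyh, of phytanic acid oxidation, 8.08 ± 6.11, 10.2 ± 12.7 and 2.06 ± 3.58 CPM in restricted, aged ad libitum and young mice (SD, n = 3 each).

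Other mitochondrial acyl-CoA genes were 0 of 15 called, regulators 0 of 17 and other ketone and monocarboxylate genes 0 of 9 in each comparison. Ndufab1, the mitochondrial acyl carrier protein, averaged 116 ± 37.6 CPM in restricted mice, 101 ± 15.6 CPM in aged ad libitum mice and 181 ± 13.4 CPM in young mice (age -0.84 ± 0.27, SE, edgeR adjusted p 0.209). Acot7, a cytosolic thioesterase, averaged 39.8 ± 6.89, 63.5 ± 8.19 and 73.8 ± 12.9 CPM, and Auh, an enoyl-CoA hydratase of leucine breakdown, 21.1 ± 9.25, 8.09 ± 7.23 and 4.76 ± 2.53 CPM in the same groups. Tfam, which maintains and transcribes mitochondrial DNA, had 16.6, 17.7 and 25.8 CPM in restricted mice, 1.02, 6.70 and 13.5 CPM in aged ad libitum mice and 33.9, 31.4 and 14.2 CPM in young mice. Aged ad libitum libraries were below all others for Tfam, with log2 fold changes of 1.52 ± 0.70 for restriction and -1.92 ± 0.69 for age (SE; edgeR adjusted p 0.391 and 0.275). The deacetylase gene Sirt1 averaged 16 ± 4.58, 27.3 ± 10.7 and 9.17 ± 3.56 CPM and the corepressor gene Ncor1 621 ± 193, 772 ± 129 and 496 ± 111 CPM in restricted, aged ad libitum and young mice. Hmgcs1, the cytosolic synthase of the mevalonate pathway, averaged 38.4 ± 7.08, 48.3 ± 4.56 and 78.1 ± 10.9 CPM (restricted against young -1.02 ± 0.34, SE, edgeR adjusted p 0.151). Slc16a6, a ketone body carrier, averaged 61.4 ± 24.9, 85.9 ± 37.8 and 43.0 ± 17.3 CPM, and Aacs, which activates acetoacetate in the cytosol, 13.1 ± 9.00, 23.3 ± 3.96 and 33.0 ± 12.9 CPM in the same groups (SD, n = 3 each).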

How the data were processed

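Per the labels' protocols, cells were freed from the tumours with collagenase D and dispase, cleared of red blood cells by lysis and taken with CD8a beads. QuantSeq 3′ libraries were read as 75 bp single reads. The deposited values are raw counts of reads per gene, which do not scale with transcript length. The tools named in the submitters' processing notes are Trim Galore, STAR and featureCounts, and the genome is GRCm38 (mm10). Their versions, the use of strand, the handling of reads with several matches and any use of molecular identifiers were not given in the sources used here. Without identifiers PCR copies count as separate reads, so counting intervals and floors cover counting error only. Gene coordinates in the file matched GENCODE M21 for 1 of the 32 members, so none were used; RefSeq windows are on GRCm38.p6.

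Of 25361 genes, 9009 passed edgeR's filterByExpr (minimum count 10), 29 of the 30 members among them. The test was edgeR 4.0.16's robust quasi-likelihood F-test (R 4.3.3) after TMM scaling, in 1 model of 9 libraries, with Benjamini-Hochberg adjustment over all tested genes at 0.05. The common biological coefficient of variation was 40.5%. Levels are TMM-scaled CPM, and marker sums are CPM of the plain total. Alternatives used plain totals, other filters, DESeq2 1.42.0, a replicate block and left-out libraries. Within groups the chi-square of 2 libraries' counts was at least 5.65 per degree of freedom, so none was taken for a copy. The series' design text calls the replicates biological. Members, lists and tests were chosen with earlier results of these data known. Library values are printed for members called in any comparison, the 3 with the largest fitted change per comparison, the member with the highest mean, the carnitine palmitoyltransferases, the ketone enzymes and Slc16a1; those of Etfb, Hadha and Hadh were added after values were seen. Neighbouring lists are represented by called genes and otherwise by up to 3 genes with the smallest p.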

Additional observations from a re-analysis of the deposited data

How the results depend on the processing

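No member was called in any comparison under any of the alternatives, except Oxct1 in restricted against young mice without aged restricted replicate 2, so that the count of members called ran from 0 to 1 when single libraries were left out of that comparison. The median log2 fold change of the members moved by less than 0.256 under each alternative. That value is the SD within groups of each library's median member level on the log2 scale, not an SD of the fold change. When libraries were left out the median ran from -0.07 to 0.31 for restriction, -0.13 to 0.07 for age and -0.03 to 0.17 for restricted against young mice. Its sign thus changed in each comparison. The count of genes called over all genes moved more. For restriction, 85 became 50 with plain library totals, 224 with no filter on low counts, 171 with DESeq2, 133 with the replicate block and 43 in a fit of the groups compared alone, and it ran from 35 (without aged ad libitum replicate 2) to 157 (without aged restricted replicate 2). For age, 26 became 126 with no filter, 89 with DESeq2, 49 with the replicate block and 58 in a fit of the groups compared alone, and it ran from 2 (without young replicate 2) to 91 (without aged restricted replicate 2). For restricted against young mice, 175 became 286 with no filter and 223 with the replicate block, and it ran from 98 (without young replicate 2) to 242. The cause was not tested. Samples of the same replicate number correlated across groups at -0.03 to 0.08, and those of different numbers at -0.08 to 0.05. These small values do not settle whether the numbers pair the samples. The replicate block called 0 members.

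Some signs changed. The restriction change of Cpt2 became 0.045 with plain totals and 0.18 with the block, and that of Slc16a1 became 0.030 with plain totals and 0.0064 without mitochondrially encoded genes. With single libraries left out, restriction changes ran from -0.84 to 0.51 for Cpt2, -1.05 to 0.11 for Oxct1, -0.56 to 0.35 for Slc16a1, -0.33 to 0.68 for Slc25a20, -0.27 to 2.25 for Acox3, -0.060 to 0.41 for Ndufab1 and -0.88 to 1.38 for Phyh. Age changes ran from -0.41 to 0.73 for Cpt1a, -0.0094 to 0.97 for Cpt2, -0.63 to 0.59 for Etfa, -0.25 to 1.18 for Auh, -0.60 to 0.24 for Lipa, -0.10 to 0.47 for Plin2 and -0.45 to 0.11 for Ucp2. Restricted against young changes ran from -0.043 to 0.39 for Acat1 and from -0.43 to 0.91 for Cpt2.

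Fabp4 passed the age threshold under some settings, such as DESeq2 (adjusted p 0.0101) and no filter (edgeR adjusted p 7.36e-04). For restriction, Ucp2 passed with no filter (0.014) and without aged restricted replicate 2 (0.00788), and Scp2 passed with no filter (0.0378), all edgeR adjusted p. In restricted against young mice Ucp2 passed with no filter (edgeR adjusted p 0.0432) and without aged restricted replicate 2 (0.0122), Fabp4 with no filter (0.0398), and Acox3 without young replicate 2 (0.0405), where its log2 fold change became 7.30 against 2.58 with all libraries, since the other young libraries were at 0. Bdh1 was tested only with a filter of 30 counts in all or with no filter. At this depth few members had a 95% interval narrower than a 2-fold change either way.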

Other observations

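Partner genes of the set differed in the ratio of their counts within a library. Hadha had 1.18, 2.07 and 1.85 times the counts of Hadhb in the aged restricted libraries, 5.43, 23 and 9.5 times in aged ad libitum libraries and 8, 2.87 and 2.26 times in the young libraries. The restricted ratios lay below all others, on Hadhb counts as low as single digits in other libraries. Oxct1 had 0.565, 1.36 and 0.559 times the counts of Acat1 in the restricted libraries, 3.05, 2.11 and 1.90 times in aged ad libitum libraries and 1.86, 0.822 and 1.94 times in the young libraries, and restricted mice lay wholly below aged ad libitum mice. Etfb had 1.77, 2.02 and 1.53 times the counts of Etfa in the restricted libraries, 3.86, 2.43 and 1.71 times in aged ad libitum libraries and 6, 2.25 and 11.2 times in the young libraries. These pairs were chosen after their values were seen and were not tested.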
